A study of Mus musculus with 6 samples.

Results

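Glutathione peroxidases, superoxide dismutases and peroxiredoxins are the enzymes that remove superoxide and peroxides from cells, and 10 of their genes were followed in AOM/DSS-induced colorectal tumors with and without epithelial p53. The genes are Gpx1, Gpx2, Gpx3, Gpx4, Sod1, Sod2, Sod3, Prdx1, Prdx2 and Prdx6. They were chosen by name, and each matched 1 row among the 54167 genes with a deposited TPM, a unit in which transcript length and library size are both scaled out. The tumors came from C57BL/6J mice of 2 genotypes. Trp53fl/fl mice carry loxP sites around both alleles of Trp53, and no Cre (n = 3). VP mice are Pvillin-Cre + Trp53fl/fl, so that the same alleles can be deleted by Cre under the villin promoter, which is active in intestinal epithelium and not in stroma or immune cells (n = 3). All mice were male and 8 weeks old at the injection of 10 mg/kg azoxymethane (AOM), a carcinogen, received 2.5% dextran sulfate sodium (DSS), which injures the colon, in cycles of 7 days, and were examined on day 98. Tumor tissue was measured in bulk, and a lower share of a cell type cannot be told apart from less RNA per cell.

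Superoxide is formed by the respiratory chain and by NADPH oxidases. Superoxide dismutases turn it into hydrogen peroxide, Sod1 in the cytosol, Sod2 in the mitochondrial matrix and Sod3 outside the cell. Glutathione peroxidases then reduce hydrogen peroxide with glutathione, and most peroxiredoxins do so with thioredoxin. Gpx2 is the glutathione peroxidase of the gut epithelium. In mammals Gpx1, Gpx2, Gpx3 and Gpx4 are selenoproteins, and the codon for selenocysteine is UGA, which elsewhere ends translation.

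The selenocysteine codon sets Gpx1 to Gpx4 apart from the other members. In the coding sequences of GENCODE M21 (GRCm38), each of the 4 genes had 1 in-frame TGA before the stop codon, and the 6 other members had 0. The stretches of 30 bases around this codon are shown because they carry the feature on which the 4 transcripts depend. The corresponding stretches of Gpx7 and Gpx8, which have a cysteine codon there, are shown for comparison. Capitals mark the selenocysteine or cysteine codon.
Gpx1: gtcgcgtctctcTGAggcaccacgatccgg
Gpx2: gtggcgtcactcTGAggaacaactacccgg
Gpx3: gtagccagctacTGAggtctgacagaccaa
Gpx4: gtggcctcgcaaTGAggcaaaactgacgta
Gpx7: gtagctagcgaaTGTggcttcacagaccag
Gpx8: gtggctagtgacTGCcgcttcacagacaag
The codon was number 47 of Gpx1, 40 of Gpx2, 73 of Gpx3 and 129 of Gpx4, counted from the start codon of the longest complete coding sequence. Gpx1 and Gpx2 shared 24 of the 30 bases, and so did Gpx7 and Gpx8, while Gpx1 and Gpx3 shared 14.

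The genotype labels were checked with Trp53, which was at 124.94, 99.30 and 147.45 TPM in Trp53fl/fl tumors and at 38.45, 32.79 and 27.83 TPM in VP tumors (log2 fold change -1.87, limma adjusted p = 0.0207). Limma, a linear model fitted to all genes, was applied to log2(TPM + 1) of 15117 genes, those that reached 1 TPM in 3 tumors or more. Log2 fold changes are VP minus Trp53fl/fl on that scale, with standard errors (SE). P-values were adjusted over all genes tested by the method of Benjamini and Hochberg. The median of all log2 fold changes was -0.07. The summed TPM of the 12 epithelial markers ran from 10908 to 11288 in Trp53fl/fl tumors and from 12371 to 13412 in VP tumors. These markers did not move alike, with log2 fold changes from -0.03 for Krt20 to 0.47 for Lgals4 and a median of 0.15. The 7 neutrophil markers summed to between 362 and 695 TPM in Trp53fl/fl tumors and to between 1127 and 1944 in VP tumors. Red blood cell markers summed to 165 to 484 and to 648 to 992 TPM. The ranges of the fibroblast, smooth muscle, endothelial, macrophage, lymphocyte and adipocyte sums overlapped between the genotypes. No marker passed the adjustment. At an unadjusted p-value under 0.05 there were 3 of 12 epithelial, 5 of 7 neutrophil and 4 of 4 tested red blood cell markers, all higher in VP tumors. So were 1 of 7 endothelial and 1 of 7 macrophage markers, while 2 of 8 fibroblast markers were lower. Of all genes tested, 4.51% were higher and 8% lower in VP tumors at that threshold. The adipocyte marker Lep and the red cell marker Hba-a2 were listed at 0 in every tumor.

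All 10 antioxidant genes passed the filter on low values, and none of them passed the test between the genotypes. The smallest limma adjusted p among them was 0.407, for Prdx1. Over all genes tested, 0.165% passed the adjustment. At an unadjusted p-value under 0.05 the count was 0 of 10 members, against 12.5% of all genes tested. The 2 genotypes did not overlap for 3 of the 10 members, Sod1 and Sod2 with higher values in VP tumors and Prdx1 with lower values, against 19.3% of all genes tested (6.03% with higher and 13.3% with lower values in VP tumors). The median log2 fold change of the members was 0.10, with 6 above and 4 below 0, where 39.2% of all genes tested lay above 0. With epithelial centring, in which the mean of the epithelial markers is subtracted in each tumor, 3 members lay above and 7 below 0. Summed over the members, TPM were 4850, 4894 and 4642 in Trp53fl/fl tumors and 4410, 4834 and 5256 in VP tumors. The sums of the VP tumors thus lay on both sides of those of the Trp53fl/fl tumors.

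**Figure D1:**
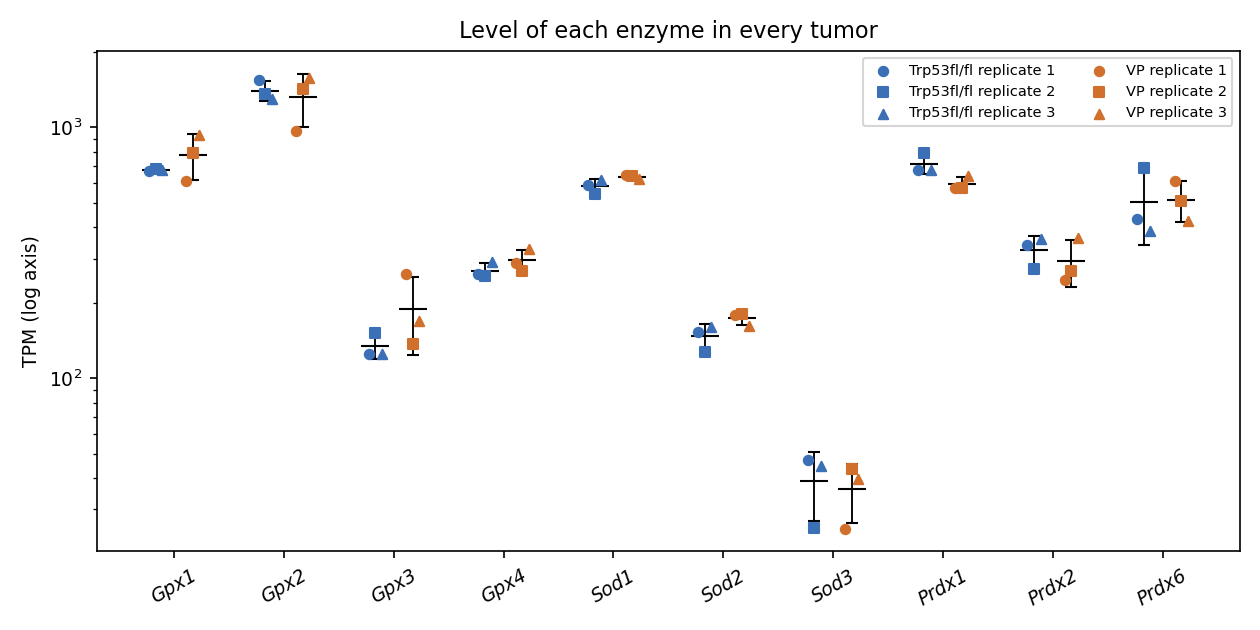
TPM of the 10 genes (vertical axis, log scale) in the 3 Trp53fl/fl tumors (blue) and the 3 VP tumors (orange), 1 point a tumor, with the mean (horizontal line) and the SD (bars). Gpx2 is highest in all 6 tumors and Sod3 lowest, and the genotypes are apart, by small distances, for Sod1, Sod2 and Prdx1.

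The levels of the 10 genes can be set in order, since TPM are per transcript length. Gpx2 was first in all 6 tumors, at 965 to 1575 TPM, and no value of Gpx1, the next, reached that range. Gpx1 (610 to 935 TPM), Prdx1 (572 to 791), Sod1 (543 to 646) and Prdx6 (385 to 691) followed, and neighbours in this group overlapped in range. Gpx1 lay above Prdx1 in 3 of 6 tumors, Prdx1 above Sod1 in 4 and Sod1 above Prdx6 in 5. Prdx2 (246 to 363 TPM) and Gpx4 (255 to 328 TPM) came next, below Prdx6 in every tumor, and overlapped each other. Gpx3 (125 to 261 TPM) and Sod2 (127 to 180 TPM) could not be ranked, with Gpx3 above Sod2 in 3 of 6 tumors. Gpx3 lay below Gpx4 in every tumor, although their ranges overlapped. Sod3, at 25.1 to 47.0 TPM, was below every value of the other 9 genes. The 4 genes at the head of the order encode a gut epithelial, a ubiquitous and a cytosolic peroxide-removing enzyme and the cytosolic dismutase. The extracellular enzymes Gpx3 and Sod3 were in its lower part.

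Gpx2 encodes the glutathione peroxidase found mainly in the epithelium of the gut. It was at 1549.54, 1354.66 and 1303.28 TPM in Trp53fl/fl tumors and at 965.14, 1427.04 and 1575.21 TPM in VP tumors. The lowest and the highest value of all 6 were thus both from VP tumors. The log2 fold change of -0.11 (SE 0.20, limma adjusted p = 0.828) had a 95% interval from -0.58 to 0.36, and without VP replicate 1 it was 0.10.

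Gpx1 encodes the most widely expressed glutathione peroxidase of cytosol and mitochondria. Its values in Trp53fl/fl tumors were nearly the same, 673.29, 684.00 and 678.22 TPM, a coefficient of variation of 0.790%. In VP tumors it was at 609.94, 787.40 and 934.86 TPM, a coefficient of variation of 20.9%, with 1 tumor below and 2 above all Trp53fl/fl tumors. With an SE of 0.16 the log2 fold change was 0.17 (limma adjusted p = 0.664). It was 0.34 without VP replicate 1 and 0.03 without VP replicate 3. Gpx2 and Gpx1 had the same order among the VP tumors, with replicate 1 lowest and replicate 3 highest. The ratio of Gpx2 to Gpx1 was 2.30, 1.98 and 1.92 in Trp53fl/fl tumors and 1.58, 1.81 and 1.68 in VP tumors, without overlap. No test was made of this ratio, which was chosen after the values had been seen.

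Gpx4 encodes the phospholipid hydroperoxide glutathione peroxidase, which acts on oxidized membrane lipids and restrains ferroptosis. It was at 260.15, 255.08 and 291.18 TPM in Trp53fl/fl tumors and at 288.40, 268.15 and 327.95 TPM in VP tumors, and the genotypes overlapped. Its log2 fold change was 0.13 (SE 0.12, limma adjusted p = 0.649), and -0.036 with epithelial centring.

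Gpx3 encodes the secreted glutathione peroxidase of plasma and extracellular fluid. It was at 125.24, 151.32 and 125.20 TPM in Trp53fl/fl tumors and at 261.30, 136.31 and 169.38 TPM in VP tumors. VP replicate 1 stood far above the other 5 tumors, and VP replicate 2 lay within the Trp53fl/fl range. The log2 fold change of 0.45 (SE 0.23, limma adjusted p = 0.465) was the greatest in size among the 10 genes, and its 95% interval, from -0.10 to 0.99, was wide. Without VP replicate 1 it was 0.19. Of the marker sums, that of adipocytes was also highest in VP replicate 1, at 30.2 TPM against 14.2 to 23.4 TPM in the other 5 tumors. It was made up mostly of Fabp4 (24.71 TPM in VP replicate 1 and 12.57 to 19.91 elsewhere) and Cidec (5.47 TPM and 1.27 to 3.73), both highest in that tumor. Lep was at 0 in every tumor and Adipoq at most at 0.23 TPM. In VP replicate 1, Adipoq and Retn were at 0 and Plin1 at 0.01 TPM. The neutrophil sum was also highest in VP replicate 1, at 1944 TPM, with 1897 TPM in VP replicate 2. The other lists had their highest sums in other tumors. Whether cells of either list had a part in Gpx3 was not tested. Among 11444 other genes with a mean of at least 5 TPM, those whose log2 values deviated most alike over the 6 tumors were Slc16a11, Tmem37 and C1qtnf1, with mean absolute differences of 0.0955, 0.0996 and 0.108 from Gpx3. Tmem37 was at 25.08, 31.72 and 20.01 TPM in Trp53fl/fl tumors and at 53.73, 29.85 and 35.27 TPM in VP tumors. As it was chosen for its likeness to Gpx3, its pattern is a description.

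Within the glutathione peroxidases, Gpx2 made up 59.4%, 55.4% and 54.4% of the summed TPM of the 4 genes in Trp53fl/fl tumors and 45.4%, 54.5% and 52.4% in VP tumors. The share of Gpx1 was 25.8%, 28.0% and 28.3% in Trp53fl/fl tumors and 28.7%, 30.1% and 31.1% in VP tumors, without overlap. That of Gpx3 was 12.3% in VP replicate 1 and 4.80% to 6.19% in the other tumors. Shares within a tumor do not change with the scaling of the library. These shares were described and not tested.

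**Figure D2:**
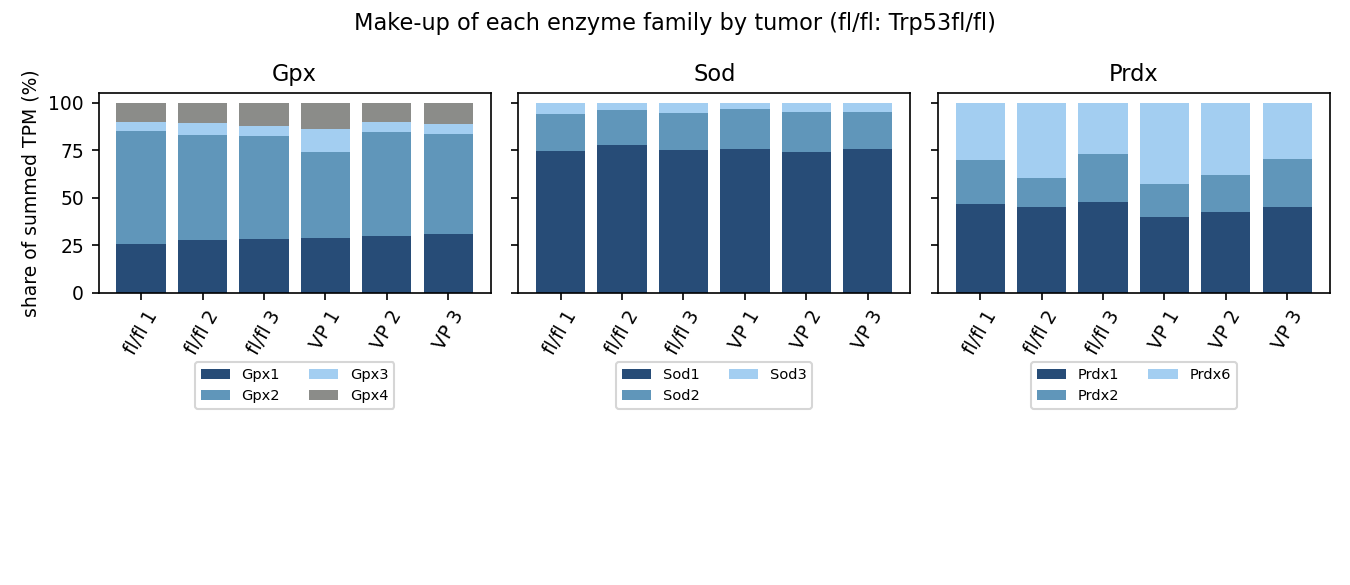
Share of each gene in the summed TPM of its family (vertical axis, percent) in each of the 6 tumors (fl/fl: Trp53fl/fl), for the 4 Gpx genes, the 3 Sod genes and the 3 Prdx genes. The shares of Sod1 and Sod2 differ little between tumors, while Sod3 runs from 2.95% to 5.94%. Gpx3 takes 12.3% in VP replicate 1 and Prdx6 runs from 27.1% to 42.7%.

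Of the superoxide dismutases, the 2 intracellular ones were higher in each VP tumor than in each Trp53fl/fl tumor, by amounts that did not pass the test. Sod1, the copper-zinc enzyme of the cytosol, was at 590.16, 542.56 and 617.41 TPM in Trp53fl/fl tumors and at 646.10, 642.48 and 620.51 TPM in VP tumors. The lowest VP value exceeded the highest Trp53fl/fl value by a small margin. Its log2 fold change was 0.13 (SE 0.10, limma adjusted p = 0.614) with a 95% interval from -0.11 to 0.37, and -0.039 after epithelial centring.

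Sod2, the manganese enzyme of mitochondria, which is also induced by inflammatory cytokines, was at 153.05, 126.74 and 160.20 TPM in Trp53fl/fl tumors and at 179.21, 180.08 and 161.70 TPM in VP tumors. Trp53fl/fl replicate 2 was lowest, and VP replicate 3 was close to Trp53fl/fl replicate 3. VP minus Trp53fl/fl was 0.25 on the log2 scale (SE 0.12, unadjusted p = 0.0798, limma adjusted p = 0.441). Leaving out single tumors gave 0.15 to 0.31, and epithelial centring gave 0.081. Median-of-ratios rescaling gave 0.33 with an unadjusted limma p of 0.0305, and the adjusted p lay between 0.311 and 0.704 over the 13 alternatives. Neutrophil and epithelial marker sums were higher in the same tumors, and their part in the values of Sod1 and Sod2 was not tested.

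Sod3, the extracellular enzyme, was at 46.97, 25.30 and 44.57 TPM in Trp53fl/fl tumors and at 25.13, 43.29 and 39.63 TPM in VP tumors. Each genotype had 1 tumor near 25 TPM and 2 near 40 TPM or above, so that the spread within a genotype exceeded the difference between them. The log2 fold change of -0.10 (SE 0.29, limma adjusted p = 0.902) had a 95% interval from -0.78 to 0.58 and changed sign without Trp53fl/fl replicate 1, Trp53fl/fl replicate 3 or VP replicate 1. Sod1 made up 74.2% to 78.1% of the summed Sod TPM, Sod2 18.2% to 21.1% and Sod3 2.95% to 5.94%. The share of Sod2 was 19.4%, 18.2% and 19.5% in Trp53fl/fl tumors and 21.1%, 20.8% and 19.7% in VP tumors, which did not overlap.

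Prdx1, a cytosolic peroxiredoxin that reduces hydrogen peroxide and is itself a target of the Nrf2 antioxidant response, was lower in each VP tumor than in each Trp53fl/fl tumor. It was at 678.86, 790.74 and 678.82 TPM in Trp53fl/fl tumors and at 575.34, 571.89 and 641.63 TPM in VP tumors. Its log2 fold change of -0.26 (SE 0.11, unadjusted p = 0.0553, limma adjusted p = 0.407) had a 95% interval from -0.53 to 0.0078. It was negative in all 13 alternative settings, between -0.43 with epithelial centring and -0.18, and in none of them did the adjusted p fall below 0.134. Prdx1 was the member with the lowest unadjusted p-value. The share of Prdx1 in the 3 peroxiredoxins was 46.8%, 45.1% and 47.7% in Trp53fl/fl tumors and 40.1%, 42.4% and 45.0% in VP tumors.

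The promoters of Prdx1 and Sod1 are shown because both genes separated the genotypes, in opposite directions, and were the only members, of those with a promoter entry, whose window held the core of the antioxidant response element, TGACNNNGC on either strand, to which Nrf2 binds. RefSeq (GRCm38.p6) gave windows of 300 bases, from 250 before to 50 after the start of transcription, for 8 of the 10 genes. Capitals mark the core, which is on the minus strand of both windows. It overlaps no TATAAA in them.
Prdx1, chr4:116685349-116685648, plus strand: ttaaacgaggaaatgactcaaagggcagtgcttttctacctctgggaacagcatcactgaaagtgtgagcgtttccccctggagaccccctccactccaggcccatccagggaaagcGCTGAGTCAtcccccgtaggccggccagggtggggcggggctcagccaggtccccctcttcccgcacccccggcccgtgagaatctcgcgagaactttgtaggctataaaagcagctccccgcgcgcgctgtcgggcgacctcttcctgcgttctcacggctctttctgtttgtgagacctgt
Sod1, chr16:90220512-90220811, plus strand: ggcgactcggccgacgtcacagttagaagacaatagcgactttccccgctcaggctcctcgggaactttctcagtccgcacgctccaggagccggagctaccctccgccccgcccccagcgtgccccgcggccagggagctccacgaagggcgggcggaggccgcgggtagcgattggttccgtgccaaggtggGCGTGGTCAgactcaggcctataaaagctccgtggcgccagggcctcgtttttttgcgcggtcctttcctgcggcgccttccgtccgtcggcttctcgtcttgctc
The 8 genes had 11 windows, of which 2, those shown, held the core. Of all 32851 windows in the table, 12.4% held the same letters. Both windows also held TATAAA, as did 13.6% of all windows, on either strand. A match of letters is a description and does not show binding.

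Prdx2, a peroxiredoxin of the cytosol that is also abundant in red blood cells, was at 339.72, 272.84 and 358.20 TPM in Trp53fl/fl tumors and at 246.15, 267.98 and 362.89 TPM in VP tumors. The highest and the lowest values were both from VP tumors, and the log2 fold change of -0.16 (SE 0.18, limma adjusted p = 0.725) was smaller than its SE. The red blood cell marker sums were higher in each VP tumor, and their part in Prdx2 was not tested.

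Prdx6, which reduces phospholipid hydroperoxides and also has phospholipase activity, was at 433.33, 691.23 and 385.12 TPM in Trp53fl/fl tumors and at 612.97, 509.67 and 422.63 TPM in VP tumors. The Trp53fl/fl tumors spanned the VP tumors, with replicate 2 highest. The coefficient of variation was 32.7% in Trp53fl/fl tumors and 18.5% in VP tumors. Its log2 fold change of 0.06 (SE 0.24, limma adjusted p = 0.925) was -0.10 after epithelial centring, and leaving out single tumors gave -0.10 to 0.32.

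Among the remaining enzymes of these families, 2 of the 6 tested, both peroxiredoxins, had an unadjusted p-value under 0.05 with higher values in VP tumors, against 4.51% of all genes tested, and none passed the adjustment. Prdx4, the peroxiredoxin of the endoplasmic reticulum, was at 60.33, 68.65 and 74.76 TPM in Trp53fl/fl tumors and at 85.25, 81.35 and 92.91 TPM in VP tumors (log2 fold change 0.35, SE 0.12, limma adjusted p = 0.340). Prdx5, found in mitochondria and peroxisomes, was at 208.02, 187.14 and 219.98 TPM in Trp53fl/fl tumors and at 241.82, 256.04 and 249.71 TPM in VP tumors (log2 fold change 0.28, SE 0.10, limma adjusted p = 0.348). The genotypes did not overlap for these 2 of the 6 tested, against 6.03% of all genes tested with higher values in VP tumors. The list was chosen with earlier results of these data known. With epithelial centring the log2 fold changes of Prdx4 and Prdx5 were 0.18 and 0.12, with unadjusted limma p-values of 0.232 and 0.362. Over the 13 alternative settings the unadjusted p-value was under 0.05 in 10 for Prdx4, not without Trp53fl/fl replicate 1 or VP replicate 3, and in 6 for Prdx5, not without Trp53fl/fl replicate 1 or 2 or VP replicate 2 or 3.

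Prdx3, the mitochondrial peroxiredoxin, was nearly level over the 6 tumors, at 84.59 to 91.99 TPM (log2 fold change -0.01, limma adjusted p = 0.971). Cat, the peroxisomal catalase that removes the hydrogen peroxide made by acyl-CoA oxidases, was at 33.95, 42.04 and 40.46 TPM in Trp53fl/fl tumors and at 33.24, 38.75 and 34.20 TPM in VP tumors (log2 fold change -0.13, limma adjusted p = 0.680). Its level was below that of every peroxiredoxin in each tumor. Gpx7 and Gpx8, glutathione peroxidases of the endoplasmic reticulum, were at 5.95 to 12.48 and 6.95 to 11.99 TPM, with differences of 0.33 and -0.20 on the log2 scale (limma adjusted p = 0.575 and 0.653). Gpx5 and Gpx6 were below the filter, with no value above 0.11 TPM.

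**Figure D3:**
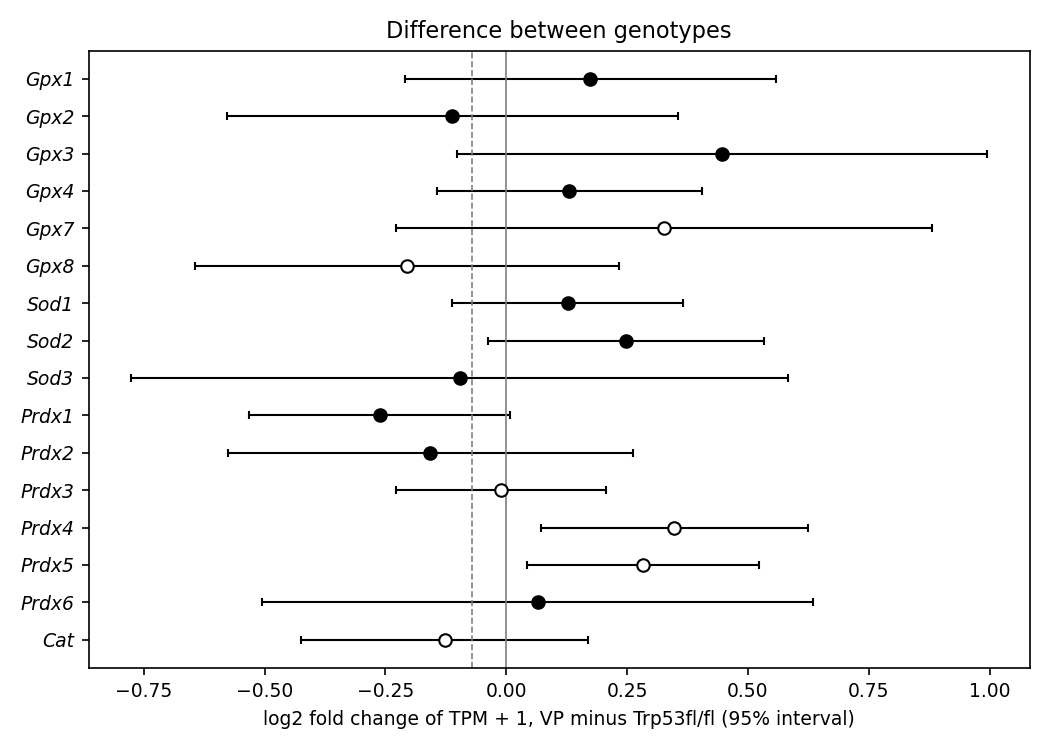
Log2 fold change of TPM + 1, VP minus Trp53fl/fl (horizontal axis), with its 95% interval from limma for the 10 members (filled) and for Gpx7, Gpx8, Prdx3, Prdx4, Prdx5 and Cat (open). The dashed line is the median of all genes tested, -0.07. The intervals of all members include 0, and those of Prdx4 and Prdx5 do not, without adjustment.

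Thioredoxins, thioredoxin reductases and sulfiredoxin keep most peroxiredoxins reduced, and glutathione is made and recycled by a second set of enzymes. Of 14 genes for thioredoxin, sulfiredoxin, glutaredoxins and sestrins, 5 had a log2 fold change above and 9 below 0, with a median of -0.06, where 39.2% of all genes tested lay above 0. Sesn2 encodes a stress-induced sestrin linked to peroxiredoxin regeneration. It was the 1 gene of the 14 with an unadjusted p-value under 0.05, and had lower values in VP tumors. This count was near the 8% of all genes tested. Sesn2 was at 10.72, 10.64 and 10.90 TPM in Trp53fl/fl tumors and at 7.16, 8.70 and 7.41 TPM in VP tumors (log2 fold change -0.43, SE 0.13, limma adjusted p = 0.317). Its unadjusted p-value was under 0.05 in all 13 alternative settings, while the adjusted p-value ran from 0.124 to 0.667. Of 10 genes for glutathione supply and reduction, 4 lay above and 6 below 0. Slc7a11, the cystine importer, was the 1 gene of the 10 with an unadjusted p-value under 0.05, near the same 8%, and was at 7.36, 7.25 and 8.22 TPM in Trp53fl/fl tumors and 6.34, 4.19 and 4.88 TPM in VP tumors (log2 fold change -0.50, SE 0.17, limma adjusted p = 0.341). Its unadjusted p-value was under 0.05 in 9 of the 13 alternative settings, and was 0.0509 and 0.0634 without Trp53fl/fl replicates 1 and 3 and 0.0749 and 0.0575 without VP replicates 2 and 3 (limma). Without overlap between the genotypes and lower in VP tumors were 3 of the 14 genes, Sesn2 among them. So was Slc7a11, 1 of the 10, against 13.3% of all genes tested.

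Selenium supply and selenoprotein synthesis serve Gpx1 to Gpx4. Of 15 such genes, among them other selenoproteins, 11 lay above and 4 below 0, with a median log2 fold change of 0.05. Of all genes tested, 39.2% lay above 0. Selenom, a selenoprotein of the endoplasmic reticulum, was the 1 gene of the 15 with an unadjusted p-value under 0.05, near the 4.51% of all genes tested that were higher in VP tumors, and was at 101.22, 86.34 and 125.42 TPM in Trp53fl/fl tumors and 132.52, 160.88 and 130.50 TPM in VP tumors (log2 fold change 0.44, limma adjusted p = 0.352). This held in 8 of the 13 alternative settings. Epithelial centring gave 0.28 with an unadjusted limma p of 0.146, the replicate block gave a p of 0.0558, and p was 0.0723 and 0.0804 without Trp53fl/fl replicates 1 and 2 and 0.0935 without VP replicate 2. Of 6 tested genes for copper and manganese supply to superoxide dismutases, 5 lay above and 1 below 0, and none had an unadjusted p-value under 0.05.

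The genes for sources of superoxide and hydrogen peroxide held 6 of the 11 genes of the wider lists with an unadjusted p-value under 0.05. Of 12 tested genes, 11 lay above 0, against 39.2% of all genes tested, and none passed the adjustment. An unadjusted p-value under 0.05 was found for 6, all with higher values in VP tumors, against 4.51% of all genes tested. Without overlap between the genotypes and higher in VP tumors were 6, against 6.03% of all genes tested. The list was chosen with earlier results of these data known, so these counts are a description and not a test of the list. Nox1, the NADPH oxidase of the colonic epithelium, was at 22.82, 11.92 and 18.68 TPM in Trp53fl/fl tumors and at 40.60, 35.92 and 33.44 TPM in VP tumors. The genotypes did not overlap, and the log2 fold change was 1.04 (SE 0.23, limma adjusted p = 0.234). Its organizer subunit Noxo1 was at 96.26, 102.94 and 83.17 TPM in Trp53fl/fl tumors and at 128.64, 115.26 and 120.69 TPM in VP tumors (log2 fold change 0.37, limma adjusted p = 0.317). Noxa1, the activator subunit of Nox1, was at 41.94, 36.18 and 39.87 TPM in Trp53fl/fl tumors and at 66.58, 67.08 and 44.12 TPM in VP tumors, a difference of 0.56 on the log2 scale (limma adjusted p = 0.323). Duoxa2, the maturation factor of Duox2, and Xdh, xanthine dehydrogenase, differed by 0.63 and 0.54 on the log2 scale (limma adjusted p = 0.334 and 0.341), also without overlap. Both were named beyond the genes that the rule allowed, after their values had been seen. With epithelial centring 3 of the 12 genes had an unadjusted p-value under 0.05, and the log2 fold change of Nox1 was 0.88. Over the 13 alternative settings the unadjusted p-value was under 0.05 in 13 for Nox1, 12 for Noxo1, 10 for Noxa1, 11 for Duoxa2 and 9 for Xdh. Among single tumors left out, it was above 0.05 without Trp53fl/fl replicate 2, VP replicate 1 or VP replicate 2 for Noxa1 (0.0505, 0.0571 and 0.0575), without VP replicate 3 for Duoxa2 (0.0644), and without Trp53fl/fl replicate 1, VP replicate 1 or VP replicate 2 for Xdh (0.0627, 0.0657 and 0.0708). Epithelial and neutrophil marker sums were higher in the same VP tumors, and their part in these values was not tested. Cybb, the catalytic subunit of the phagocyte oxidase, was at 8.47, 10.07 and 8.74 TPM in Trp53fl/fl tumors and 7.75, 11.48 and 9.40 TPM in VP tumors. Cyba, Ncf1 and Ncf4, which encode further parts of that oxidase, differed by 0.22, 0.29 and -0.11 on the log2 scale (limma adjusted p = 0.643, 0.586 and 0.850). The myeloperoxidase gene Mpo had no value above 0.36 TPM and was below the filter. These genes were also named beyond the rule. The part of phagocytes in the values of this list was not tested.

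**Figure D4:**
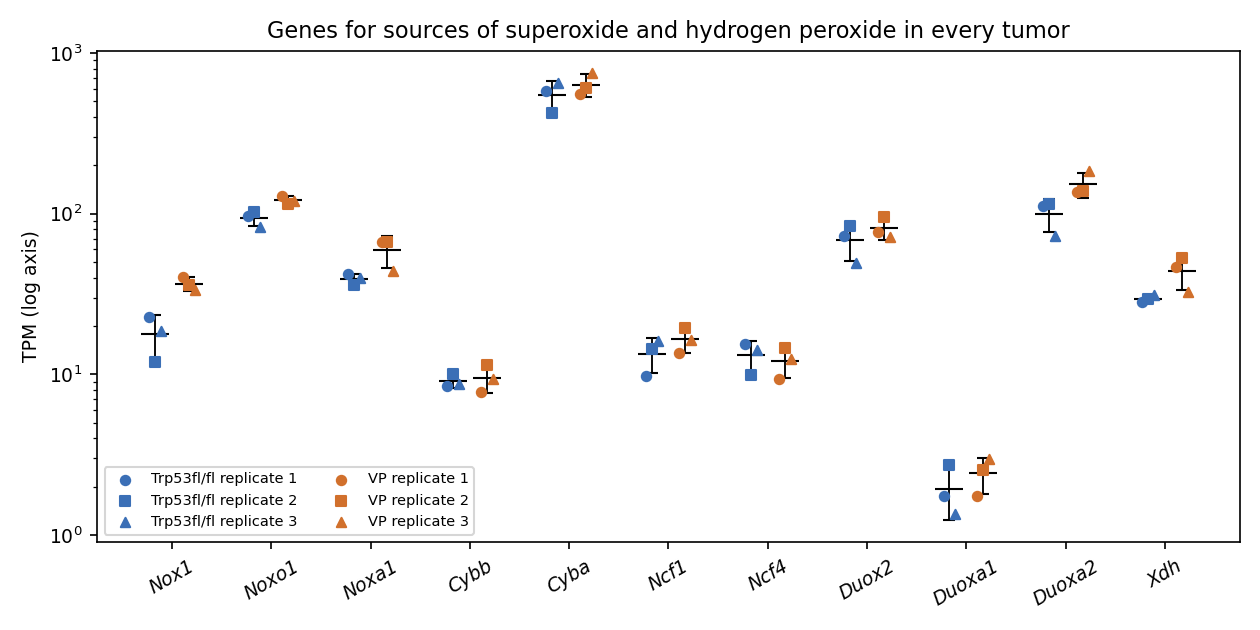
TPM (vertical axis, log scale) of 11 of the 12 tested genes for sources of superoxide and hydrogen peroxide in the 3 Trp53fl/fl tumors (blue) and the 3 VP tumors (orange), with mean (horizontal line) and SD (bars). Nox1, Noxo1, Noxa1, Duoxa2 and Xdh do not overlap between the genotypes, while Cybb and Ncf4 do.

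Near-identical copies could divide reads with some members. In GENCODE M21, 10 genes or pseudogenes matched the coding sequence of a member with at least 90% identity over at least 50% of its length. They were copies of Gpx2, Gpx4, Sod1, Prdx1, Prdx2 or Prdx6. The deposited TPM of these copies did not exceed 2.54 (Gpx2-ps1), and summed to at most 0.492% of the TPM of the member in any tumor. How reads that fit 2 genes were counted is not given in the sources used here.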

How the data were processed

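TPM per gene were deposited by the authors for 6 tumors, without pooling, from paired-end reads of poly(A)-selected RNA. The submitters' processing notes name HISAT2, StringTie and mm9, without versions or roles. The annotation is not given in the sources used here. TPM keep no read number, so the depth of each tumor is unknown and no counting error can be given. Coordinates of the sequences shown are those of GRCm38 and were not joined to coordinates of the values, which have none. Columns were assigned by the code in the sample descriptions, 0 columns were left without a sample, and no pair held identical values.

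From the deposited TPM, log2(TPM + 1) was tested with limma 3.58.1 in R 4.3.3 (empirical Bayes with trend, Benjamini-Hochberg adjustment over the 15117 genes that reached 1 TPM in 3 tumors or more). The fit was tested on simulated data. Lists and shares were described without a test. A gene of the list of sources of superoxide and hydrogen peroxide is counted in that list but not reported here by name. Members and lists were chosen with earlier results of these data known. All members were named, as were the remaining Gpx and Prdx genes and Cat, Trp53, and at most 4 genes with an unadjusted p-value under 0.05 in each wider list, in order of p. Further genes of the list of superoxide and hydrogen peroxide sources were named beyond this rule. The 3 genes most like the member with the greatest change were also named. Nothing says that replicates are more than separate tumors. The p-values thus set the genotype difference against the spread between these tumors, moderated by limma over all genes tested. The sample titles do not say whether the tumors came from separate mice. Copies were searched with BLAST 2.17.0. Alternatives were a pseudocount of 0.1, median-of-ratios rescaling, no filter, a minimum mean of 5 TPM, centring on 12 epithelial markers, the replicate number as a block, no trend, and each tumor left out.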

Additional observations from a re-analysis of the deposited data

How the results depend on the processing

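None of the 10 members passed the adjustment in any of the 13 alternatives. The number of genes past the limma adjustment, 25 as reported, was 43 with epithelial centring, 10 with the replicate block, 7 with no filter, and 3 to 23 with a tumor left out (3, 14 and 9 without Trp53fl/fl replicate 1, 2 and 3, and 7, 5 and 23 without VP replicate 1, 2 and 3). Of these calls 12 were higher and 13 lower, against 12 and 8 with median-of-ratios rescaling and 15 and 28 with epithelial centring. Over all genes tested the median was -0.07, 0.00062 with rescaling and -0.24 with epithelial centring. The members with an unadjusted p-value under 0.05 went from 0 to 1 with median-of-ratios rescaling (Sod2) and with epithelial centring (Prdx1), and from 0 to 1 when single tumors were left out (Gpx1 without VP replicate 1, Gpx3 without VP replicate 2 and Prdx1 without VP replicate 3). The 6 superoxide and peroxide source genes at that threshold became 3 with epithelial centring and 4 to 6 with a tumor left out; these settings were chosen for that list after seeing the data.

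Signs changed with epithelial centring for Gpx4 (-0.036), Sod1 (-0.039) and Prdx6 (-0.10). They also changed for Gpx2 without VP replicate 1 (0.10), for Sod3 (0.06, 0.02 and 0.14) and for Prdx6 (-0.02, -0.10 and -0.07) without Trp53fl/fl replicate 1, Trp53fl/fl replicate 3 and VP replicate 1. Leaving out single tumors gave -0.25 to 0.10 for Gpx2, -0.37 to 0.14 for Sod3 and -0.10 to 0.32 for Prdx6. Epithelial centring moves the log2 fold change of every gene by the same amount, so its sign changes fall on genes with small positive values. The cause of the changes with single tumors left out was not tested. Same-numbered tumors did not deviate together (r of 0.0185, -0.0520 and 0.0175 across genes), and no tumor correlated best with its own number. The numbers were thus not taken as pairs, and the replicate block gave 0 members at an unadjusted p-value under 0.05. TPM hold no read numbers, so what depth limits could not be computed.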
